A study of Danio rerio with 15 samples.

Results

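Leptin b (lepb, ENSDARG00000045548) is 1 of the 32520 zebrafish gene IDs in a table of RNA levels that follows a venous clot from its formation to its regression. It was chosen by its own FPKM values over these libraries, at 0 in control and high at 3 h, so those levels are given below as a description with no test. The fish were larvae of the line Tg (flk1:eGFP; gata1:dsRed), in which the endothelium carries a green and the erythroid cells a red fluorescent protein, and every group shared these transgenes. A laser was used to damage vein endothelium posterior to the anal pore, and the clot that followed was cut out of frozen sections by laser-capture microdissection. Clots were taken 1, 3, 6 and 12 h after injury, times that the study gives as the initial stage, the peak, the stabilization and the regression of the clot, and the control was vein of uninjured fish. There were 3 libraries in each of the 5 groups, 15 in all. The labels do not tie a library to an animal, so p-values reflect only how far libraries of a group differ, and that spread may be technical. The later times had no uninjured control of their own.

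Leptin is a small helical protein of the class I cytokine family. In mammals it is a hormone of fat cells that reports energy stores to the brain, and it signals through the leptin receptor, the kinase JAK2 and the transcription factor STAT3, which in turn induces SOCS3, an inhibitor that closes the loop. Teleost fish kept a pair of leptin genes, lepa and lepb. In zebrafish lepb is known less as a fat hormone than as a gene switched on in injured fins and hearts, where an enhancer beside it has been used to drive genes in regenerating tissue.

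The recovered read totals were 12486844 to 15651535 per library, and 11443 to 17422 gene IDs had a level above 0. Levels are FPKM, reads scaled to transcript length and to the mapped reads of the library. Of the marker lists of tissues and cell types, that of muscle had the highest summed level in every library, 44780 to 92950 FPKM over its 22 IDs, or 6.60% to 13.2% of the FPKM summed over all IDs. Endothelial markers were present at much lower summed levels, 14.6 to 27.9 FPKM at 3 h against 31.2 to 35.4 FPKM in control, and 4.22 FPKM in 1 h library A. In such bulk samples fewer cells of a type and less RNA per cell cannot be told apart. Neural markers stood apart in 2 libraries, with summed levels of 272 FPKM in 1 h library B and 867 FPKM in 12 h library B, against 12.0 to 91.7 FPKM in the other libraries. The 1 h library called B here is a 1 h library by the start of its column name, but its letter B is in no 1 h sample title, so the title it belongs to is not known.

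lepb RNA was seen early after injury, was abundant at 3 h and had gone from all 12 h libraries. In the 3 control libraries it was listed at 0. At 1 h it stood at 23.3 FPKM in library A, 11.6 FPKM in library B and 0 in library C. At 3 h it stood at 228, 108 and 346 FPKM in libraries A, B and C. All 3 of these values lay above every value outside 3 h, and the lowest of them was 4.63 times the highest 1 h value. At 6 h only library A had lepb reads, with a level of 6.80 FPKM, which was 6.29% of the lowest 3 h level. At 12 h all 3 libraries were back at 0.

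**Figure D1:**
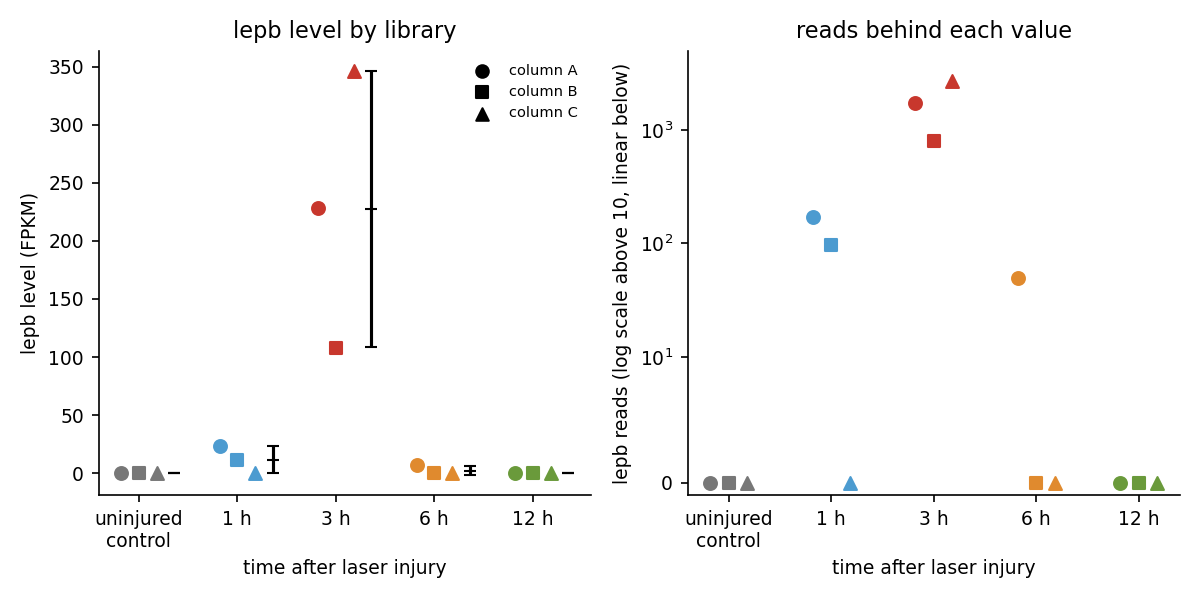
lepb by library in the uninjured control and 1, 3, 6 and 12 h after laser injury. The left panel plots the level (FPKM, linear axis) with the mean and SD of each group as a black bar, and the right panel plots the reads behind each value (log scale above 10 reads, linear below); marker shapes stand for column letters A, B and C. The 3 h libraries lie at 108 to 346 FPKM, above all others, and 9 of the 15 libraries are at 0.

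The group means were 0 in control, 11.6 ± 11.7 FPKM at 1 h, 227 ± 119 FPKM at 3 h, 2.27 ± 3.92 FPKM at 6 h and 0 at 12 h (SD, n = 3 each). The 3 h mean was 19.5 times the 1 h mean and 100.4 times the 6 h mean. In the order of the means, 3 h comes first and stands clear of its neighbour. The 1 h and 6 h groups follow and overlap each other, since each held a library at 0, and both overlap control and 12 h for the same reason. On the log2(FPKM + 1) scale lepb lay 2.75 above control at 1 h, 7.68 above it at 3 h and 0.99 above it at 6 h, and its difference at 12 h was 0. The 6 h difference rests on library A and is 0 without it. At 1 h it is 1.83 without library A, 2.30 without library B and 4.13 without library C.

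The reads show how firm these values are. Each FPKM value here is a whole number of equal steps, 1 per read, so reads could be counted back, and the step of lepb is that of a transcript of 589 bases. The 15 libraries held 5582 lepb reads, of which 94.3% came from 3 h, 4.80% from 1 h and 0.896% from 6 h. At 3 h there were 1737 reads in library A, 798 in library B and 2729 in library C. Their 95% Poisson intervals were 1656 to 1821, 744 to 855 and 2628 to 2833 reads. The 3 h levels spanned a 3.20-fold range between libraries. The 1 h libraries A and B held 172 and 96 reads, and 6 h library A held 50 reads. In the 9 libraries at 0, a count of 3 reads would have read as 0.325 to 0.396 FPKM, so levels under these could have been missed at this depth. Intervals and floors cover counting error only.

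Ranked among all detected gene IDs of its library, lepb was among the most abundant few percent at 3 h. At 3 h it ranked 285 of 12857 IDs in library A, 418 of 13074 in library B and 210 of 13282 in library C. At 1 h it ranked 1409 of 11443 in library A and 2669 of 12788 in library B, and at 6 h it ranked 3666 of 12917 in library A. So even the weakest 3 h library placed lepb above 96.8% of the IDs it detected, and the only positive 6 h library placed it above 71.6%.

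Few genes were listed at 0 in the uninjured vein and abundant in the clot at 3 h. lepb is among them by the way it was chosen. Of 14362 IDs listed at 0 in all 3 control libraries, 155 were above 0 in every 3 h library and 4 reached 10 FPKM in each of them. These were lepb, the CC chemokine gene ccl34a.4 and 2 copies of 5S_rRNA, a short repeated RNA whose reads cannot be placed with certainty. The 14362 include IDs never seen, since only 23802 of all 32520 IDs were above 0 in any library. ccl34a.4 stood at 13.1, 25.4 and 20.7 FPKM at 3 h and was still at 21.0, 24.1 and 17.5 FPKM at 6 h, when lepb had left 2 of the 3 libraries. Just under that level, with lowest 3 h values of 5.42 to 8.60 FPKM, were PLEK2, fosl1b, PPP1R3G and 3 IDs with clone names. At the limit of 10 FPKM ccl34a.4 was thus the other protein-coding gene with this on-switch. It was still seen at 6 h, but at 12 h it varied widely, with 0, 2.51 and 79.1 FPKM in libraries A, B and C. Below that limit lepa, too, was at 0 in control and above 0 in every 3 h library.

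The sister gene lepa rose at 3 h, at a far lower level than lepb. lepa (ENSDARG00000091085) had 1.24, 14.6 and 13.7 FPKM at 3 h, against 0 in all 3 control libraries. Its 3 h mean of 9.86 ± 7.49 FPKM (SD, n = 3) was below that of lepb by a factor of 23.1. The groups did not overlap, and the log2 difference of 3.00 ± 0.70 (SE) passed the threshold with a limma adjusted p of 0.0424. However, lepa entered the test, which asks for 1 FPKM in 3 or more libraries, only through 3 h, where it is high. Its p is thus given as description only. The call is fragile: it was lost in 8 of 14 alternatives, with adjusted p of 0.147, 0.134 and 0.104 without control library A, B or C and of 0.121 and 0.0923 without 3 h library B or C. Outside 3 h lepa was above 0 in 1 h library C (0.615 FPKM), 6 h library B (2.71 FPKM) and 12 h library B (0.420 FPKM). The 3 h library that was lowest in lepa was not the one lowest in lepb.

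Among the ligands of its family that were looked up, lepb had the highest 3 h mean of 16. This list holds both leptins and the ligands of interleukin 6 type, growth hormone, prolactin, erythropoietin and colony-stimulating factor genes, with crlf1a, a secreted partner of clcf1. Next came il11b, an interleukin 11 gene, with 14.2, 11.3 and 16.9 FPKM at 3 h against 0, 0 and 1.42 FPKM in control, which gave a log2 difference of 3.48 ± 0.88 (limma adjusted p = 0.0626, over the threshold). The third by mean was lepa and the fourth crlf1a, with 16.9, 8.21 and 4.16 FPKM at 3 h. il11a reached 19.7 FPKM in 3 h library C, cntf 14.4 FPKM in 3 h library A, and il6 had reads in 12 h library C only. The reads of epob and csf3a were 0 in every library.

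**Figure D2:**
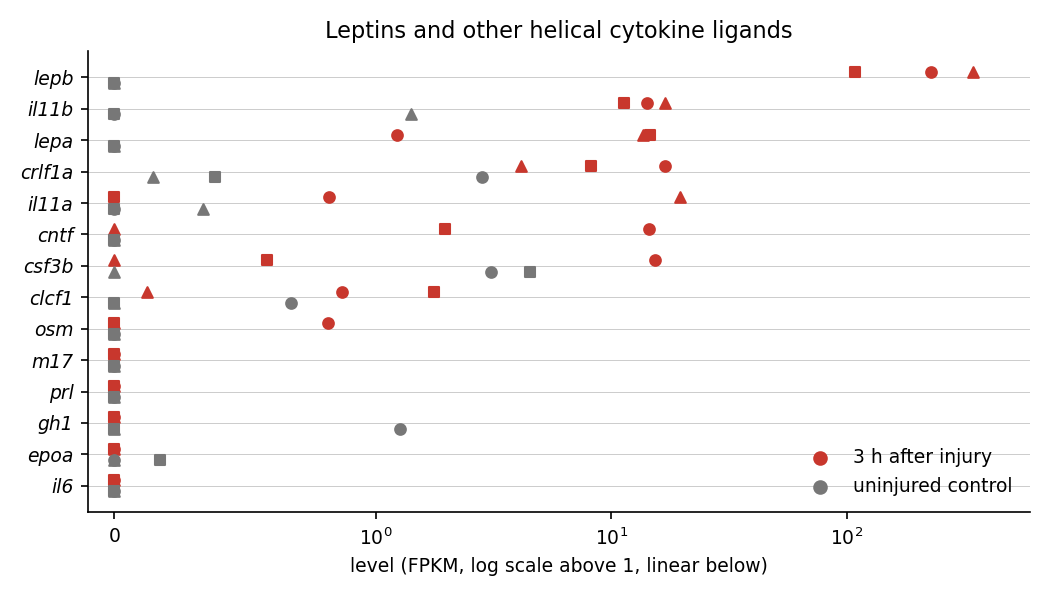
Levels of the leptins and other helical cytokine ligands in each 3 h library (red, upper row of each gene) and each uninjured control library (grey, lower row), in FPKM on an axis that is logarithmic above 1 and linear below; circles, squares and triangles are columns A, B and C. Genes are ordered by their 3 h mean, and lepb lies at 108 to 346 FPKM with its control libraries at 0, while no other ligand exceeds 19.7 FPKM at 3 h.

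The receptor of leptin was close to absent. lepr had 0.0939, 0.0138 and 0.0129 FPKM at 3 h against 0.227, 0.166 and 0.0644 FPKM in control, or 9 reads against 40 reads over the 3 libraries of each group. Its highest level anywhere was 0.680 FPKM, in 6 h library B. It was under the level needed for the test, so no difference was tested. il6st, the gp130 chain shared by interleukin 6 type receptors, was better measured, with 16.2, 20.0 and 8.18 FPKM at 3 h against 2.97, 1.53 and 3.08 FPKM in control. All 3 of its 3 h values lay above the control values, but the log2 difference of 2.11 ± 0.53 missed the threshold (limma adjusted p = 0.0606). il6st did not share the time course of lepb, with 10.3, 7.92 and 13.8 FPKM at 1 h and 17.9, 11.2 and 10.9 FPKM at 6 h. Its log2 difference at 6 h against 3 h was -0.09 ± 0.53 (limma adjusted p = 0.969).

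Downstream of the receptor, some feedback inhibitors of the SOCS family rose at 3 h, both copies of SOCS3 and SOCS1, while SOCS2, CISH, cishb and the kinases had no call. The 3 h log2 differences of SOCS2, CISH and cishb were -0.04 ± 0.85, 0.10 ± 0.74 and -0.16 ± 0.88 (limma adjusted p = 0.995, 0.976 and 0.964). Of 38 names in a leptin signalling list that leaves lepb out, 37 were matched, to 36 IDs, and 30 of these passed the filter on low values (3 or more libraries at or above 1 FPKM). At 3 h against control 5 of the 30 (16.7%) were higher by the limma test at an adjusted p under 0.05, none lower and 25 did not pass. The 5 include lepa, which passed the filter only through its 3 h libraries. This list and the gene lists below were chosen with earlier results of these data known, so their shares are given as description. Over all 13706 IDs tested 0.817% were higher and 0.547% lower. The median log2 difference was 0.58 over the 30 and -0.12 over all tested. At 1 h against control 2 of the 30 (6.67%) were higher and none lower, against 0.124% higher and 0.102% lower over all. The 4 comparisons with control share the control libraries, and the comparisons that involve 3 h share the 3 h libraries.

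SOCS3 binds activated JAK kinases and their receptors and shuts the pathway down, and 2 zebrafish IDs carry its name in the list. The copy ENSDARG00000025428 had 114, 53.8 and 70.9 FPKM at 3 h against 0, 0.957 and 0.115 FPKM in control, and already 15.0, 42.0 and 12.1 FPKM at 1 h. Its log2 difference was 5.89 ± 0.59 at 3 h (limma adjusted p = 8.0e-05) and 4.01 ± 0.59 at 1 h (adjusted p = 0.00911), and the 3 h call was kept in all 14 alternatives. The copy ENSDARG00000026611 had 88.2, 68.0 and 62.4 FPKM at 3 h against 7.89, 13.5 and 6.90 FPKM in control, and 53.3, 56.6 and 50.4 FPKM at 1 h. Its log2 difference was 2.86 ± 0.43 at 3 h (adjusted p = 0.0031; 0.0519 with only the 2 groups fitted) and 2.43 ± 0.43 at 1 h (adjusted p = 0.0243). In 1 h library C, which had no lepb read, both copies thus lay above every control value. That is 1 library, and a link between lepb and SOCS3 was not tested. Without control library A the 1 h calls were lost (adjusted p = 0.0526 and 0.137), and that of ENSDARG00000026611 was also lost without control library C (0.119), 1 h library A (0.084) or 1 h library C (0.0509). Both 1 h calls held without 1 h library B, the library with high neural markers (0.0264 and 0.0461).

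SOCS1, another inhibitor of JAK kinases, had 112, 48.1 and 17.7 FPKM at 3 h against 0, 4.71 and 0.129 FPKM in control. Its log2 difference was 4.66 ± 1.09 (limma adjusted p = 0.0442), a call lost in 9 of 14 alternatives, with adjusted p of 0.186, 0.0578 and 0.136 without control library A, B or C and of 0.184 and 0.101 without 3 h library A or B. FOXO1 (ENSDARG00000099555), a transcription factor held back by insulin and leptin signalling through PI3 kinase, had 26.3, 28.5 and 18.4 FPKM at 3 h against a mean of 2.99 ± 1.56 FPKM and a highest value of 3.98 FPKM in control. Its log2 difference was 2.74 ± 0.50 (adjusted p = 0.0124), and the call was lost without control library B (0.0664) or 3 h library A (0.0523). In both genes every 3 h library lay above every control library.

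**Figure D3:**
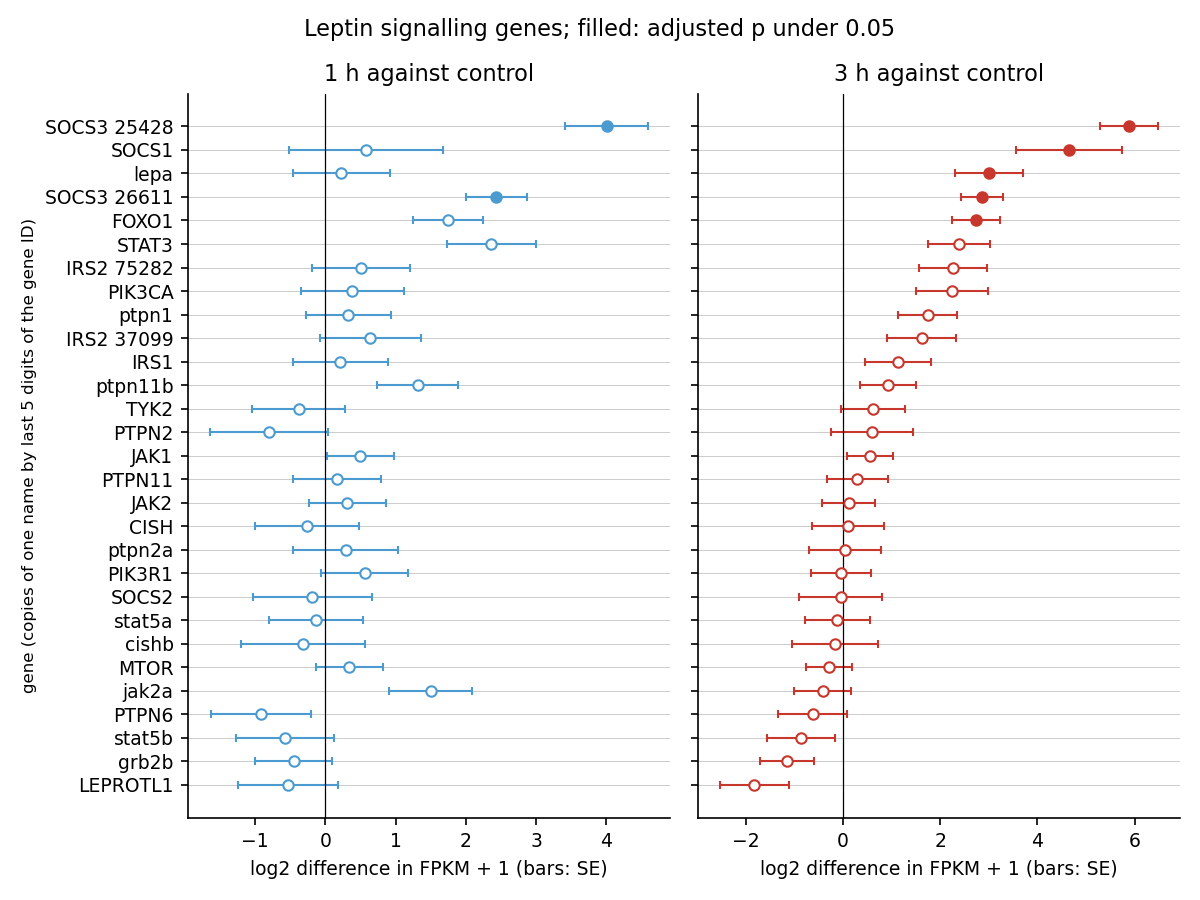
Log2 differences in FPKM + 1 of 29 of the 30 leptin signalling IDs that passed the filter, at 1 h (left) and 3 h (right) after injury against uninjured control, with SE bars and filled points where the limma adjusted p is under 0.05. Copies of 1 name are told apart by the last digits of the gene ID; 2 points are filled at 1 h and 5 at 3 h, all to the right of 0.

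STAT3 itself had 13.1, 6.50 and 15.7 FPKM at 3 h against 2.32, 1.84 and 0.292 FPKM in control, with no overlap, but its log2 difference of 2.39 ± 0.64 missed the threshold (limma adjusted p = 0.0766). The further members with the highest levels had no call at any time. Among these were CISH, the phosphatase ptpn1, the PI3 kinase subunit PIK3R1, the phosphatase PTPN2 and LEPROTL1, a relative of a protein that holds leptin receptors inside the cell. Their 3 h log2 differences ran from -1.82 ± 0.71 for LEPROTL1 (adjusted p = 0.251) to 1.75 ± 0.61 for ptpn1 (adjusted p = 0.186). The JAK kinases had none either: JAK2 had a mean of 1.36 ± 0.574 FPKM at 3 h and 1.26 ± 0.838 FPKM in control, and jak2a 0.671 ± 0.206 FPKM at 3 h and 1.40 ± 1.16 FPKM in control (SD, n = 3 each).

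**Figure D4:**
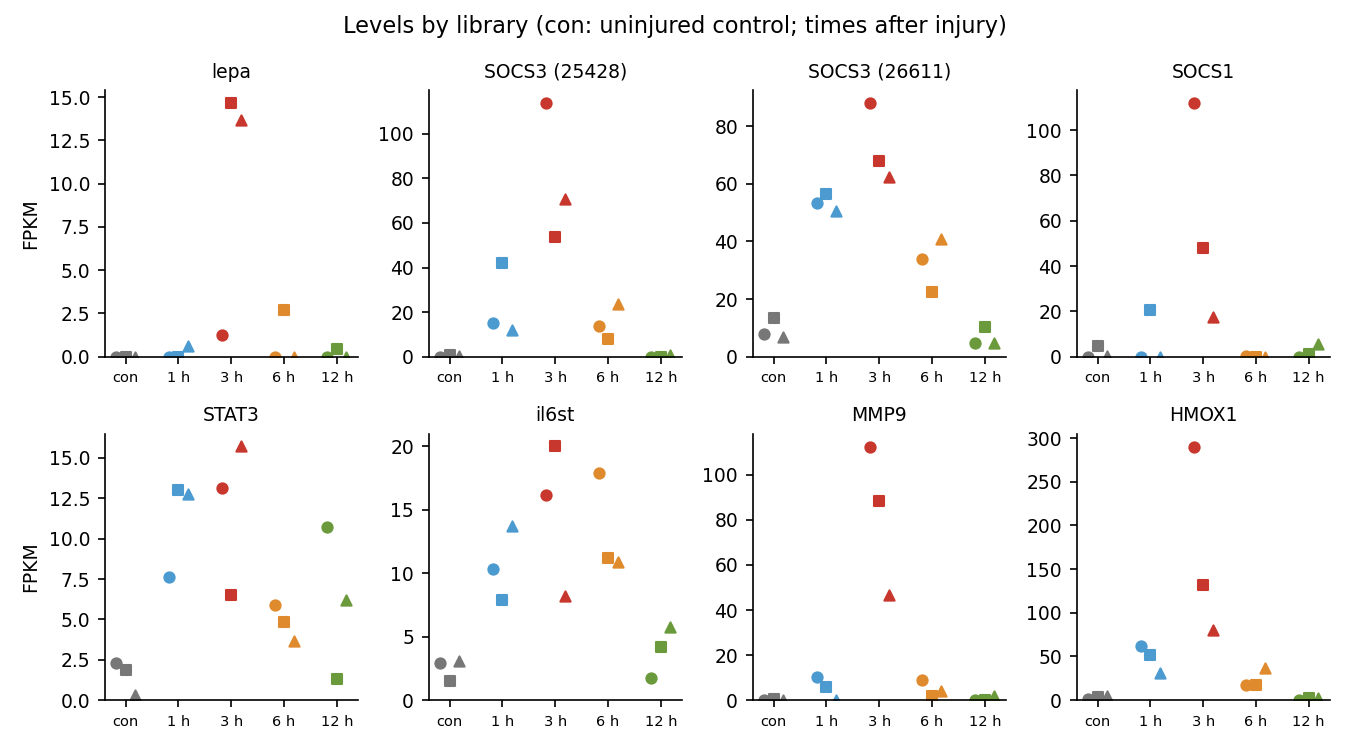
Levels (FPKM, linear axes from 0, each panel on its own scale) of 8 genes in the uninjured control (con) and 1, 3, 6 and 12 h after injury; each point is a library, with circles, squares and triangles for columns A, B and C and the last digits of the gene ID for the SOCS3 copies. The group with the highest mean is 3 h in all 8 panels, and in SOCS1 the 6 h libraries lie at 0 to 0.139 FPKM. In il6st the mean is 14.8 FPKM at 3 h and 13.3 FPKM at 6 h.

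Between 3 h and 6 h, when lepb dropped, 1 member of its pathway was called. Of the 30 leptin signalling IDs 21 had a negative difference and 9 a positive one. Their median log2 difference was -0.86, against 0.06 over all IDs. An unadjusted limma p under 0.05 was seen in 9 of them, all lower, and in 14.6% of all IDs in either direction. Over all IDs 0.511% were higher and 0.598% lower at 6 h than at 3 h, and of the 30 leptin signalling IDs 1 (3.33%) was lower, SOCS1. It had 0.139, 0 and 0 FPKM at 6 h against 112, 48.1 and 17.7 FPKM at 3 h, a log2 difference of -5.49 ± 1.09 (limma adjusted p = 0.021). The SOCS3 copies stayed partly up at 6 h: ENSDARG00000025428 had 13.8, 7.81 and 23.5 FPKM, and its log2 difference from 3 h of -2.38 ± 0.59 missed the threshold (adjusted p = 0.0624). Without any of the 3 libraries of 6 h or without 3 h library A or B the SOCS1 call was lost, with adjusted p of 0.0536 to 0.104. Against control no ID at all was called at 6 h or at 12 h by limma (0.0% each). There 761 (5.55%) and 1055 (7.7%) of all IDs had an unadjusted limma p under 0.05. A limma voom fit on the recovered reads called 1 and 11 IDs. Between 3 h and 1 h, 0.204% of all IDs and none of the 30 members were called, with 7 members at an unadjusted p under 0.05.

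Genes whose time course was most like that of lepb were found by Pearson correlation of log2(FPKM + 1) over the 15 libraries, among the other 13705 IDs tested. These values describe the libraries and carry no p, because the points share groups and depth, and the 3 h libraries hold 61.9% of the variance of lepb. MMP9, a gelatinase that opens the matrix, was the most alike (r = 0.94). It had 113, 88.3 and 46.5 FPKM at 3 h against 0, 0.413 and 0 FPKM in control. The first 10 with a gene name also held sdc4, a cell-surface proteoglycan (r = 0.91), the threonine dehydrogenase gene tdh (0.89), the small heat shock gene hspb9 (0.88), SAT1, which breaks down polyamines (0.87), the carboxylate transporter gene SLC16A6 (0.87), the AP-1 subunit gene FOSL1 (0.86), smad9, a transducer of BMP signals (0.86), and FOXO1 (0.86). All 10 had their highest mean at 3 h, which picking them by likeness to lepb favours. Of all IDs tested 18.6% had it there.

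These genes differed from lepb, and from each other, in their control levels. SAT1 reached 980, 397 and 318 FPKM at 3 h but had 31.1, 41.1 and 56.8 FPKM in control. hspb9 had 125, 77.0 and 115 FPKM at 3 h against 5.42, 4.87 and 2.14 FPKM in control. MMP9 and FOSL1 came closest to an on-switch, with control levels of at most 0.413 and 0.151 FPKM. Without the 3 h libraries the 10 correlations lay between 0.41 for hspb9 and 0.82 for MMP9 over 12 libraries. The first 10 thus differ in how far they follow lepb at the lower levels of 1 h and 6 h. lepb was at 0 in 9 of these 12 libraries, so these correlations rest on few levels above 0. Without 3 h library C only 2 of these 10 genes stay among the first 10, and with Spearman ranks 3 do.

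At the other end, 84 IDs had r of -0.8 or less and 66 had r of 0.8 or more. The 5 least alike with a gene name were the matrix proteoglycan gene DCN (r = -0.95), the nuclear import gene KPNA2 (-0.94), the chromatin gene hmgb2b (-0.93), the mitotic ubiquitin ligase partner UBE2C (-0.92) and the splicing factor gene SF3B5 (-0.92). KPNA2 had 0, 0.867 and 0 FPKM at 3 h against 45.4, 28.1 and 29.0 FPKM in control. All 5 had their lowest mean at 3 h, which the way they were picked favours. DCN stayed unlike lepb without the 3 h libraries too (r = -0.91 over 12 libraries, in 9 of which lepb was at 0).

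**Figure D5:**
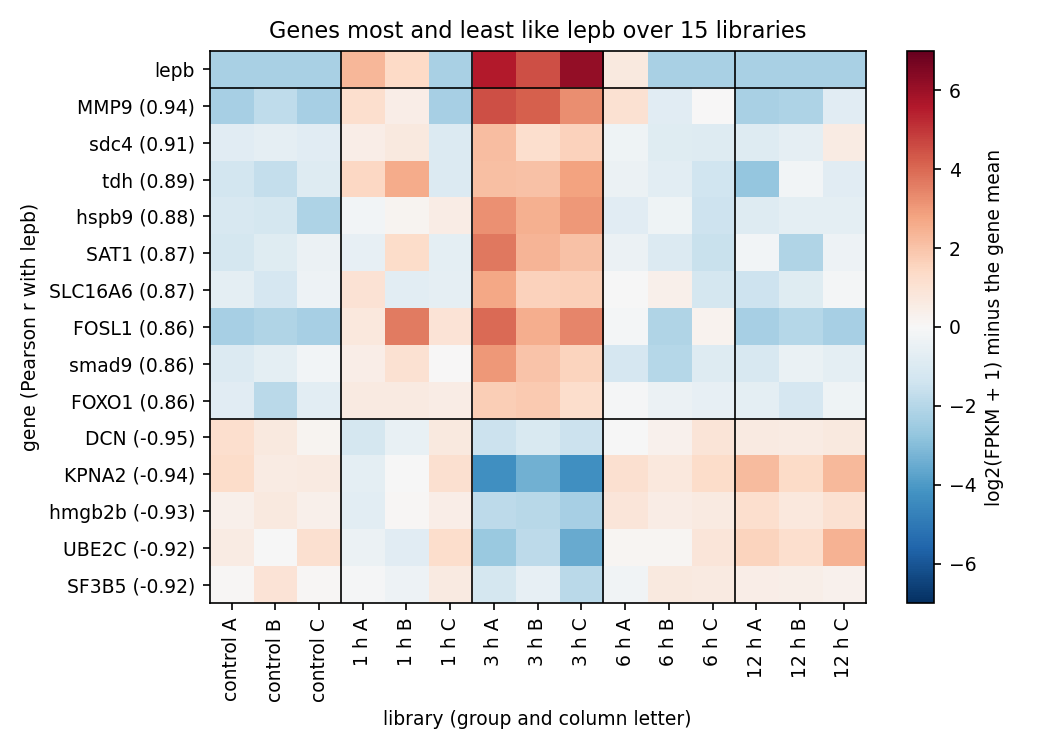
Heat map of lepb (top row), 9 of the 10 named genes most like it and the 5 least like it over the 15 libraries, as log2(FPKM + 1) minus the mean of the gene (red above, blue below); Pearson r with lepb stands beside each name. The 3 h columns are red in lepb and the 9 genes and blue in the 5 others.

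Several genes known from wound healing and fin regeneration in zebrafish and other animals rose at the same time. Of 40 tested IDs of that list, which was put together with results of these data known, 10 were higher at 3 h and none lower, against 0.817% higher and 0.547% lower over all IDs tested. The median log2 difference was 1.55 over the 40 and -0.12 over all. HMOX1, the haem-degrading oxygenase, had 290, 132 and 80.0 FPKM at 3 h against 1.17, 3.60 and 5.27 FPKM in control (log2 difference 5.20 ± 0.59, limma adjusted p = 0.000184). MMP9 (6.13 ± 0.80, adjusted p = 0.000848), FOSL1 (5.56 ± 0.77, adjusted p = 0.00128) and HMOX1 kept their 3 h calls in all 14 alternatives. JUNB (ENSDARG00000074378), another AP-1 subunit, rose by 4.17 ± 0.70 (adjusted p = 0.00774; 0.0598 by voom), the stress factor ATF3 by 4.69 ± 0.82 (adjusted p = 0.0105) and the membrane-binding annexin gene ANXA2 by 3.59 ± 0.69 (adjusted p = 0.0162). The collagenase gene mmp13a, the matricellular gene CCN1, the protease inhibitor gene TIMP2 (ENSDARG00000075261) and the fin fold gene and2 were the other 4. Of the 10 calls 4 were left without 3 h library A, 5 without 3 h library B or control library A or B, and 8 without 3 h library C or control library C.

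Of these 10 genes 5 fell again between 3 h and 6 h. The 10 were called through the same 3 h libraries, which favours a fall, so this is given as description. At 6 h against 3 h, 6 of the 40 (15.0%) were lower, against 0.598% over all IDs: ATF3 by -4.82 ± 0.82 (limma adjusted p = 0.00945), FOSL1 by -3.99 ± 0.77 (0.0183), MMP9 by -3.90 ± 0.80 (0.0237), and2 by -3.91 ± 0.81 (0.0239), HMOX1 by -2.63 ± 0.59 (0.0362) and its fellow fin fold gene and1 by -4.20 ± 0.98 (0.0476). None of the 6 stayed called without 3 h library A, 2 without 3 h library B, 1 without 6 h library A or B and 3 without 6 h library C. At 1 h HMOX1 (3.57 ± 0.59, adjusted p = 0.0148) and FOSL1 (4.02 ± 0.77, adjusted p = 0.041) were already higher than in control. They were 2 of the 40 (5.0%), against 0.124% higher over all IDs. FOSL1 stood at 60.6 FPKM in 1 h library B and 7.39 and 8.58 FPKM in the others, and its call was lost without library B (0.0892), without library A (0.0519) and without any of the control libraries (0.115 to 0.165). The HMOX1 call was lost without 1 h library A (0.0766) or control library A (0.108) or B (0.0524). Between 3 h and 1 h 1 of the 40 (2.5%) was called, against 0.204% over all IDs in either direction. This was MMP9 (4.21 ± 0.80, adjusted p = 0.0417), and not without 1 h library C (0.0891) or 3 h library A (0.136) or B (0.0902).

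STAT3 targets, relatives of interleukin 6 and transcription factors of leptin had 1, 0 and 1 calls at 3 h. The median difference of each list lay above that of all IDs (-0.12 on the log2 scale). Over all IDs 0.817% were called higher at 3 h and 13.8% had an unadjusted p under 0.05. Of 19 tested STAT3 targets known in mammals, with a median log2 difference of 0.52, 7 had an unadjusted p under 0.05 in either direction and 1 (5.26%) was higher, JUNB, which is also in the list above; BIRC5, an inhibitor of cell death, had 0, 0 and 0.964 FPKM at 3 h against 3.97, 7.90 and 9.96 FPKM in control and missed the threshold (limma adjusted p = 0.0672). None of the 16 tested genes of the interleukin 6 family and its relatives was called in any comparison by limma. Over all IDs 0.0% to 1.36% were called in either direction, so no call among 16 is close to that share. At 3 h against control, however, 13 of the 16 had a positive difference, the median was 1.38 on the log2 scale, and 7 had an unadjusted p under 0.05. Of 11 transcription factors known to regulate leptin in mammals 10 had a positive difference at 3 h, with a median of 0.72 on the log2 scale, and 1 (9.09%) was called higher, FOXO1. CEBPB had 559, 120 and 232 FPKM at 3 h against 20.7, 26.7 and 51.3 FPKM in control without overlap and missed it (adjusted p = 0.115), and HIF1A had a mean of 19.3 ± 0.428 FPKM at 3 h and 13.6 ± 1.82 FPKM in control (SD, n = 3 each; adjusted p = 0.74).

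Of 29 tested hypoxia-induced genes 1 (3.45%) was higher at 3 h, against 0.817% over all IDs. The median log2 difference of the 29 was 0.68, and 10 had an unadjusted p under 0.05. The gene called was PFKFB3, which makes the activator of the glycolytic gatekeeper phosphofructokinase, with 81.1, 65.9 and 92.2 FPKM at 3 h against 1.55, 6.94 and 2.89 FPKM in control. Its log2 difference was 4.22 ± 0.75 at 3 h (limma adjusted p = 0.0119; 0.073 without control library A) and -3.73 ± 0.75 at 6 h against 3 h (adjusted p = 0.0223), and this drop was lost without 3 h library A (0.0838) or any 6 h library (0.0752 to 0.0925). Of 14 tested metabolic hormones and their binding proteins 1 (7.14%) was lower at 3 h, against 0.547% over all IDs. This was metrnlb, a secreted meteorin-like factor, which passed the filter on low values only through control, where it is high. It was at 0 in every 1 h, 3 h and 6 h library against 5.32, 5.01 and 5.76 FPKM in control (log2 difference -2.67 ± 0.54 at 3 h, adjusted p = 0.021), and the call was lost without any of the control libraries (0.0556 to 0.0811) or 3 h library A (0.0803) or B (0.0605). None of the 9 matched feeding neuropeptide genes, the classic brain targets of leptin, passed the filter, and 4 of them were at 0 in all libraries.

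Hepatocytes and adipocytes, which make leptin in other settings, left little trace. Hepatocyte markers, looked at because fish leptin comes largely from liver, summed to 0 to 1.33 FPKM at 3 h against 0 to 1.44 FPKM in control, with 8 of 12 IDs, fabp10a among them, at 0 in all libraries. Of the adipocyte markers plin1 and PLIN2 were at 0 in all libraries, and the summed level of 18.5 to 27.7 FPKM at 3 h against 4.47 to 21.1 FPKM in control came mostly from LPL. Markers of 2 blood cell types had higher summed levels at 3 h than in control. Neutrophil markers summed to 56.1, 33.2 and 21.2 FPKM in 1 h libraries A, B and C, the order that lepb had there. That order did not hold at 3 h, where they summed to 383, 244 and 153 FPKM in libraries A, B and C. There library C was the highest in lepb and the lowest in these markers. In 12 h library A, with lepb at 0, they summed to 127 FPKM. The control sums were 44.8 to 66.6 FPKM over the 10 IDs of this list. Of these 8 were tested and 4 rose, against 0.817% over all IDs; they include MMP9 and mmp13a, and the defining marker lyz was at or under 0.693 FPKM everywhere. Thrombocyte markers already summed to 74.13, 47.15 and 64.07 FPKM in 1 h libraries A, B and C, of which C had no lepb read. At 3 h they summed to 67.3 to 121 FPKM against 19.5 to 30.1 FPKM in control over 10 IDs. Of these 8 were tested and 2 rose, both of them copies of THBS1. The defining marker itga2b was at 0.0425 to 0.398 FPKM at 3 h. The part of these cells in the lepb levels was not tested.

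None of the tested genes beside lepb was called at 1 h or 3 h against control. Over all IDs 0.226% and 1.36% were called in either direction, so no call among so few genes says little about the locus. In the RefSeq gene order of assembly GRCz12tu, used for order only, prrt4b, impdh1b and rap1b lie on one side and dre-mir-129-1, snd1 and lrrc4.1 on the other. The nearest coding gene, prrt4b, had 0.268, 0 and 0.0136 FPKM at 3 h against 0, 0.0933 and 0.217 FPKM in control. At 1 h it had 2.52, 1.69 and 0.253 FPKM, all above its highest control value. That 1 h difference, 1.05 ± 0.48 on the log2 scale, had an unadjusted p of 0.0409 and a limma adjusted p of 0.509. It had 1.82 and 1.17 FPKM in 12 h libraries B and C, where lepb was at 0. snd1, a nuclease gene, had 12.7, 12.6 and 18.6 FPKM at 3 h against 9.64, 14.0 and 22.0 FPKM in control. rap1b, a small GTPase gene, had 42.8, 32.8 and 20.0 FPKM at 3 h against 20.9, 15.1 and 35.9 FPKM in control. At 3 h and in control the ranges of these 3 genes overlap, unlike those of lepb. impdh1b (ENSDARG00000029524) lay lower at 3 h, with 1.21, 1.29 and 5.12 FPKM against 7.25, 11.2 and 9.05 FPKM in control, and missed the threshold (limma adjusted p = 0.184). It was already lower at 1 h, with 1.17, 2.42 and 2.69 FPKM, all below its lowest control value. That 1 h log2 difference of -1.735 ± 0.58 had an unadjusted limma p of 0.00793 and an adjusted p of 0.334. dre-mir-129-1 was at 0 in all libraries, and lrrc4.1 matched no ID by name.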

How the data were processed

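RNA of captured zebrafish clot and vein tissue was sequenced in 15 libraries. HISAT placed the paired-end reads of a HiSeq 4000 on GRCz11 (Ensembl release 106), and StringTie and edgeR gave the deposited FPKM, per the labels' protocols. Not given in the sources used here: tool versions and any use of strand in counting. The table's 3 further columns match no sample and were not used. Groups came from titles and treatment labels. Symbols were found for 29201 of 32520 gene IDs in a table of gene names; some IDs share a human-style symbol, and such copies can share reads.

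The 13706 gene IDs at or above 1 FPKM in 3 or more libraries entered a limma fit of log2(FPKM + 1) (version 3.58.1, R 4.3.3; eBayes with a trend), 1 fit for all 5 groups. Tests were two-sided, p-values were adjusted by Benjamini-Hochberg across these IDs, and the threshold was 0.05. This scale understates the change of low genes. The 6 comparisons were each time against control, 3 h against 1 h and 6 h against 3 h. The fit was tested on simulated data. Reads were recovered for 20690 of the 20690 IDs above 0 in at least 2 libraries, whole within 0.001 reads, and gave the Poisson intervals at 95%.

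The gene and the lists were chosen with earlier results of these data known, and list names were matched to symbols exactly, without regard to case, then without a copy letter, a rule set after the names were seen. Named were lepb, lepa and lepr, all called leptin signalling members and up to 6 further ones by mean FPKM, up to 6 called members of each other list by smallest p or otherwise up to 4 that missed the threshold, the 10 most and 5 least correlated named IDs, IDs at 0 in control and at least 10 FPKM in every 3 h library, and 3 RefSeq neighbours on each side. Some genes that meet this rule are not reported here by name. Further genes (mmp13a, CCN1, TIMP2, and2, HIF1A, BIRC5, SOCS2, cishb, THBS1, the JAK kinases, il11a and other ligands) were named after their values were seen. Alternatives were another pseudocount (0.1), no filter, other scalings, symbols summed, 2 groups only, a replicate block, the submitters' threshold, array weights, voom on recovered reads and each library left out.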

Additional observations from a re-analysis of the deposited data

Results flagged for a closer look

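SOCS1 (ENSDARG00000038095) differed between times after injury. Its log2 difference from control was 4.66 at 3 h and -0.83 at 6 h, and the test of the difference itself, 6 h against 3 h, gave -5.49 ± 1.09 (limma adjusted p = 0.021). All 3 libraries of 6 h lay below all 3 libraries of 3 h. No other of the 30 tested members of the list was called in that comparison, where 0.511% of all IDs were higher and 0.598% lower. The SOCS1 call was lost in 8 of 14 alternatives. With median ratio scaling 4 members were called lower, and with array weights 5.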

How the results depend on the processing

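The count of IDs called moved with the settings. At 1 h against control 31 IDs were called, against 17 with no filter, 0 with only the 2 groups, 83 by voom (added after seeing the data) and 1205 at the submitters' threshold. At 3 h the 187 became 83, 27, 329 and 1828 in the same order and 345 with array weights. At 6 h the 0 became 4 with quantile normalization, 14 with weights, 1 by voom and 737 at the submitters' threshold, and at 12 h 6 with no filter, 11 by voom and 1004. For 3 h against 1 h the 28 became 65 with median ratio scaling, 0 with 2 groups, 2 with weights, 74 by voom and 1478, and for 6 h against 3 h the 152 became 60 with no filter, 8 with 2 groups, 282 with weights and 1940.

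Leptin signalling members called at 1 h were 2, but 1 with symbols summed or by voom, 0 with 2 groups and 6 at the submitters' threshold. At 3 h the 5 became 3 with a pseudocount of 0.1 or no filter, 1 with 2 groups and 12. At 6 h the 0 became 1 with quantile normalization or weights and 3, at 12 h 1, and for 3 h against 1 h 7. For 6 h against 3 h the 1 became 0 with a pseudocount of 0.1, no filter or 2 groups, 4 with median ratio scaling, 2 with quantile normalization or symbols summed, 5 with weights, 3 by voom and 9. The cause was not tested. Leaving out 1 library gave 7 to 59 IDs at 1 h, 44 to 214 at 3 h, 0 to 0 at 6 h, 0 to 2 at 12 h, 5 to 89 for 3 h against 1 h and 40 to 246 for 6 h against 3 h, and 0 to 2, 2 to 4, 0 to 0, 0 to 0, 0 to 1 and 0 to 1 leptin signalling members.

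The lepb log2 difference at 3 h was 11.0 with a pseudocount of 0.1 and 7.30 to 8.14 without 1 library; without 1 library it was 1.83 to 4.13 at 1 h, 0 to 1.48 at 6 h and 0 to 0 at 12 h. Of the 10 most alike genes 3 were shared with Spearman ranks, 5 with a pseudocount of 0.1 and 2 to 8 without 1 library. No pairing by letter was seen: deviations from group means correlated at -0.159 to 0.134 for the same letter and -0.164 to 0.21 for others. With the replicate block 9 IDs were called at 1 h and 1 at 6 h, with 0 leptin signalling members at 1 h and 2 for 6 h against 3 h. In that fit 1 h library B formed a block alone, since its title is not known. The 1 h estimates with the block thus rest on libraries A and C. In the regeneration list the block lost the FOSL1 and HMOX1 calls at 1 h, the MMP9 call for 3 h against 1 h and the HMOX1 call for 6 h against 3 h, and left all 10 calls at 3 h against control. Other settings left fewer of these 10: 4 with only the 2 groups, 5 with no filter, 6 by voom and 7 with a pseudocount of 0.1. Of the 6 calls for 6 h against 3 h they left 0, 1, 2 and 2 in the same order. Scaling moved the median of all IDs at 12 h, from 0.32 to 0.10 with median ratio scaling and -0.01 with quantile normalization. The planned edgeR test was not run, because the deposited unit is FPKM. Depth limits what can be seen of lepr, with 9 reads at 3 h and 40 in control.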
